A study of Mus musculus with 12 samples.

Results

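The 2 delivery controls of a small mouse keratinocyte study were compared with each other: cells that received an adenovirus carrying green fluorescent protein (Ad-GFP) and cells that received a non-targeting small interfering RNA in a lipid carrier (siControl). The rule took the 3 Ad-GFP and the 3 siControl libraries, 6 of the 12 libraries in the series, and all 17090 genes of the deposited table. Messenger RNA had been sequenced from primary keratinocytes of K14-SmoM2 mouse tail skin, taken 5 weeks after tamoxifen. SmoM2 is a constitutively signalling version of Smoothened, the membrane protein that relays the Hedgehog signal. In this model, labelled basal cell carcinoma, the keratin 14 promoter limits it to keratin 14-expressing epidermis. All groups carry it, so the series has no group without the allele. The share of cells in which the allele was active was not measured here.

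Per the labels' protocols, the Ad-GFP cells were exposed at a multiplicity of infection of 25 to a type 5 adenovirus lacking E1 and E3, with GFP under a CMV promoter. The siControl cells received 8 pmol of siRNA per cm2 in Lipofectamine RNAiMAX. The remaining groups were Ad-TEADi, the same virus backbone with a TEAD inhibitor as its cargo (TEADs are transcription factors), and siYAP1+TAZ, a pair of siRNA pools against the TEAD partners YAP1 and TAZ. All cells were treated a day after plating and harvested 48 h later. The shared medium held 60 µM calcium, a low level that favours undifferentiated keratinocytes, with 10 ng/ml EGF and 10 µM of the kinase inhibitor Y-27632. The labels name no untreated cells and do not say if the 3 libraries of each group stand for 3 cultures, 3 mice or repeats of one culture. All p-values therefore rest on a spread between libraries that may be technical. Virus, GFP, lipid carrier and siRNA all differ between the groups, so their parts in any difference cannot be told apart, nor can a rise in one group from a fall in the other.

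In the epidermis, basal keratinocytes divide, then leave the cell cycle and switch on spinous and later cornified envelope genes and the enzymes of the lipid barrier. Hedgehog signalling, through Smoothened and the GLI transcription factors, keeps basal cells and hair follicle progenitors growing, and its own inhibitor Ptch1 and the factor Gli1 are among its direct targets. Stressed cells phosphorylate the initiation factor eIF2, which raises translation of ATF4 and with it amino acid synthesis and uptake genes. Unfolded protein in the endoplasmic reticulum acts through ATF6, IRE1 with XBP1, and PERK to raise chaperones.

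The deposited values carry no read counts. With the lowest value of each library taken as 1 read, 1 CPM stood for 24.6 to 33.1 reads in the Ad-GFP libraries and 22.7 to 28.3 reads in the siControl libraries. No pair of libraries held the same values or agreed within sampling noise. The cells were keratinocytes by their markers: Krt5, a basal keratin, was at 18775 to 19699 CPM in Ad-GFP and 17163 to 18115 CPM in siControl, and its partner Krt14 was at 14151 to 14936 CPM in Ad-GFP and 14641 to 15157 CPM in siControl. Neither passed the test. Dermal fibroblast collagens were near the detection limit, with Col1a1 at 0.909 to 1.30 CPM in Ad-GFP and 1.35 to 2.58 CPM in siControl. The summed level of 8 fibroblast markers was 43.8 to 49.0 CPM in Ad-GFP and 33.9 to 40.3 CPM in siControl, most of it Fbln1, and 2 of 6 tested members were higher and 4 lower (none lower without Ad-GFP A or without siControl C, 1 without Ad-GFP B, 2 without Ad-GFP C). The 9 melanocyte markers summed to 99.9 to 121 CPM in Ad-GFP and 46.9 to 52.4 CPM in siControl. That difference came from Gpnmb, since Pmel, Mlana, Tyrp1, Dct and Mitf lay between 0.76 and 4.75 CPM in Ad-GFP and between 1.02 and 4.37 CPM in siControl, and none of these passed. The 10 immune markers summed to 21.6 to 24.1 CPM in Ad-GFP and 22.02 to 23.4 CPM in siControl.

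Of the 12966 genes that reached 1 CPM in 3 or more libraries, 2421 (18.7%) were higher and 2823 (21.8%) lower in Ad-GFP than in siControl at an adjusted p below 0.05 (limma on log2(CPM + 1), Benjamini-Hochberg adjustment over all genes tested). Most differences were small. The median size among called genes was 0.28 on the log2 scale, and the 5th and 95th percentiles of all genes lay at -0.44 and 0.41. At least 2-fold changes were called for 81 genes (0.625%) that were higher and 51 (0.393%) that were lower; without Ad-GFP C the second count was 83. Both 2-fold counts depended on the pseudocount of 1 CPM that log2 values here carry, which understates the change of low genes. Rescaling the columns to the same total turned the split of calls to 3184 higher and 2214 lower (59% of calls higher, against 46.2%), so the balance of directions over all genes depends on the scaling. The shares of 18.7% and 21.8% are the background for the count of every gene list, and a list with shares near them does not stand apart from all genes. In these bulk libraries, fewer cells of a type or state and less RNA per cell cannot be told apart.

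**Figure D1:**
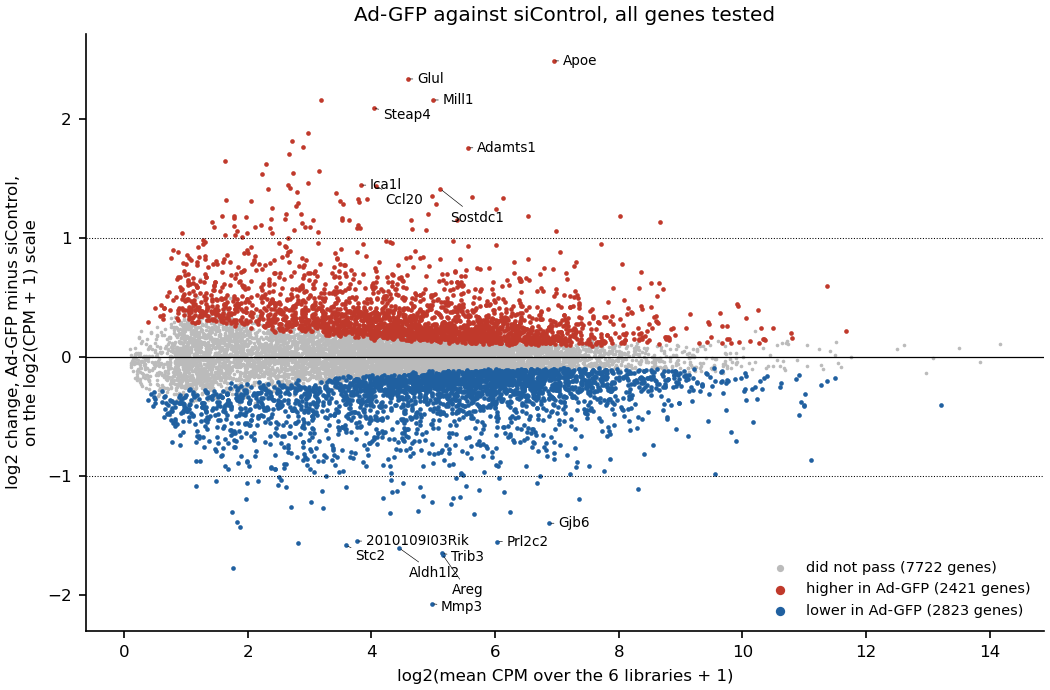
Log2 change on the log2(CPM + 1) scale, Ad-GFP minus siControl (vertical), against the log2 of the mean CPM of the 6 libraries plus 1 (horizontal), one point per tested gene. Red and blue genes passed at an adjusted p below 0.05 (2421 higher, 2823 lower); dotted lines mark 2-fold, and the 8 largest changes in each direction, taken from genes averaging 10 CPM or more, are named, from Apoe at 2.49 to Mmp3 at -2.07.

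The largest rises of genes averaging 10 CPM or more joined lipid carriers, secreted signals and single metabolic enzymes. Only called genes whose groups did not overlap were eligible, for rises and falls, so the lack of overlap was fixed by the choice. Apoe, the apolipoprotein that carries cholesterol between cells, was at 199.6, 217 and 207 CPM in the Ad-GFP libraries and 34.1, 33.7 and 41.5 CPM in the siControl libraries. Its log2 change of 2.49 ± 0.085 (SE; limma adjusted p = 1.69e-13) was the largest of this set. No Ad-GFP library came near the highest siControl library. Glul, glutamine synthetase, was at 37.9, 42.3 and 36.9 CPM in the Ad-GFP libraries and 5.81, 8.21 and 6.96 CPM in the siControl libraries, and Steap4, a metalloreductase, at 26.2, 25.5 and 24.9 CPM in the Ad-GFP libraries and 4.61, 5.91 and 5.23 CPM in the siControl libraries. Neither gene's groups came near each other, with log2 changes of 2.33 and 2.09. The remaining 12 of the 15 lay between 1.30 and 2.16. They included Mill1, a relative of MHC class I, Adamts1, a secreted protease (1.76), the chemokine Ccl20 (1.43), Sostdc1, a secreted BMP and WNT antagonist (1.41), Apoc1, a second apolipoprotein (1.35), Tnfrsf11b, the decoy receptor osteoprotegerin (1.35), and Gpnmb, a lysosomal and melanosomal glycoprotein (1.33). The others were Ica1l, Upk1b, a uroplakin, Adh7, an alcohol dehydrogenase that acts on retinol, Cbs, cystathionine beta-synthase, and Ptn, a heparin-binding growth factor.

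The largest falls were an extracellular protease, growth factor ligands, and stress and differentiation genes. Mmp3, the matrix protease stromelysin 1, was at 12.1, 10.1 and 11.0 CPM in the Ad-GFP libraries and 52.9, 44.2 and 52.5 CPM in the siControl libraries, a log2 change of -2.07 ± 0.080 (SE; limma adjusted p = 7.05e-13). Areg, a ligand of the EGF receptor, was at 16.1, 13.2 and 19.06 CPM in the Ad-GFP libraries and 50.9, 48.5 and 59.1 CPM in the siControl libraries, a change of -1.66 ± 0.093 (SE; limma adjusted p = 1.07e-10). The groups stood apart for both genes, where the choice again required no overlap. Has3 and Has2, which make hyaluronan at the cell surface, changed by -1.30 and -1.30. Has2 was at 15.2, 13.98 and 14.6 CPM in the Ad-GFP libraries and 35.9, 36.9 and 39.2 CPM in the siControl libraries, with the groups again apart. Gjb6, the connexin 30 gap junction subunit, changed by -1.40, the calmodulin-like gene Calml3 of differentiating epithelia by -1.32, Nccrp1 by -1.32, Ly6g6c by -1.22 and 2010109I03Rik by -1.55. The proliferin genes Prl2c2 and Prl2c3 changed by -1.55 and -1.20; they are near-identical copies whose reads cannot be assigned with certainty. The remaining 4 of the 15 were Trib3, Aldh1l2, Stc2 and Psph.

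Genes of the integrated stress response formed the most one-sided set with a large median. Of 24 tested ATF4 targets and ATF4 itself, 23 fell in Ad-GFP, none rose and 1 did not pass, with a median log2 change of -0.66 against -0.01 over all genes. Between 21 and 23 fell under every alternative run. Their promoters are shown because several hold the element that ATF4 and C/EBP proteins are known to bind together. The letters searched were TGATGNAA on either strand in the 250 bases before the RefSeq start; overlap with other motifs was not examined. They were found in 7 of 22 members with a promoter in the table (31.8%), in 2.38% of the 9661 tested genes with one and in 3.91% of all 27025 genes. The tRNA charging list held them in 3 of 9 promoters (33.3%), the cornified envelope list in 3 of 28 (10.7%) and the other lists counted in 0.0% to 5.56%. The ATF4 list was made of known targets, so its excess over all genes is not independent of how it was built. The stretches, of GRCm38.p6 (the mm10 assembly) and each read 5′ to 3′ on the gene's strand, belong to the 3 members with the largest falls whose match lies outside annotated exons; capitals mark the match.
Pck2 (chr14:55540138-55540195, plus strand): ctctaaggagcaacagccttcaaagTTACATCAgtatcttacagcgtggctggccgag
Chac1 (chr2:119351024-119351081, plus strand): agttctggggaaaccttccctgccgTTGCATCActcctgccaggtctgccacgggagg
Slc7a11 (chr3:50443647-50443704, minus strand): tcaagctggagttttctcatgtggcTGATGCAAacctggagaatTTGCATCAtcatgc
The Slc7a11 stretch holds the element on both strands. A match is a description of the sequence and no measure of binding.

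Among the regulators, Atf4 was at 196, 180.3 and 207 CPM in the Ad-GFP libraries and 287, 276 and 303 CPM in the siControl libraries, a log2 change of -0.57 ± 0.056 (SE; limma adjusted p = 1.49e-07). Ddit3, the stress transcription factor CHOP, was at 9.63, 9.09 and 9.71 CPM in the Ad-GFP libraries and 18.0, 19.9 and 18.4 CPM in the siControl libraries, and Trib3, a pseudokinase that restrains ATF4 and AKT signalling, at 15.7, 13.3 and 19.4 CPM in the Ad-GFP libraries and 55.5, 47.5 and 54.1 CPM in the siControl libraries. All 3 regulators were lower in every Ad-GFP library than in any siControl library, and Trib3 changed by -1.65 ± 0.10 (SE; limma adjusted p = 3.28e-10). Of the enzymes, Psph, the last enzyme of serine synthesis, was at 21.3, 21.4 and 24.0 CPM in the Ad-GFP libraries and 54.8, 51.6 and 54.7 CPM in the siControl libraries, a change of -1.24. Aldh1l2, a mitochondrial folate enzyme, changed by -1.61, and Pck2, the mitochondrial PEP carboxykinase whose promoter is shown above, by -1.18 (22.9, 20.9 and 26.7 CPM in the Ad-GFP libraries and 55.7, 53.4 and 54.0 CPM in the siControl libraries). Asns, asparagine synthetase, changed by -0.88, Chac1, which degrades glutathione, by -0.98, and the cystine transporter Slc7a11 by -0.69. Stc2, a secreted glycoprotein, was at 4.77, 4.55 and 5.69 CPM in the Ad-GFP libraries and 15.4, 16.1 and 19.6 CPM in the siControl libraries, a change of -1.59 ± 0.12 (SE; limma adjusted p = 5.2e-09). Enzymes that charge transfer RNA, many of them ATF4 targets, followed: 11 of 15 fell and none rose (median -0.34). Cars, Aars, Gars and Nars, the enzymes for cysteine, alanine, glycine and asparagine, changed by -0.66, -0.54, -0.50 and -0.47. One gene of this list passed as higher after rescaling to the same total or quantile normalization.

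**Figure D2:**
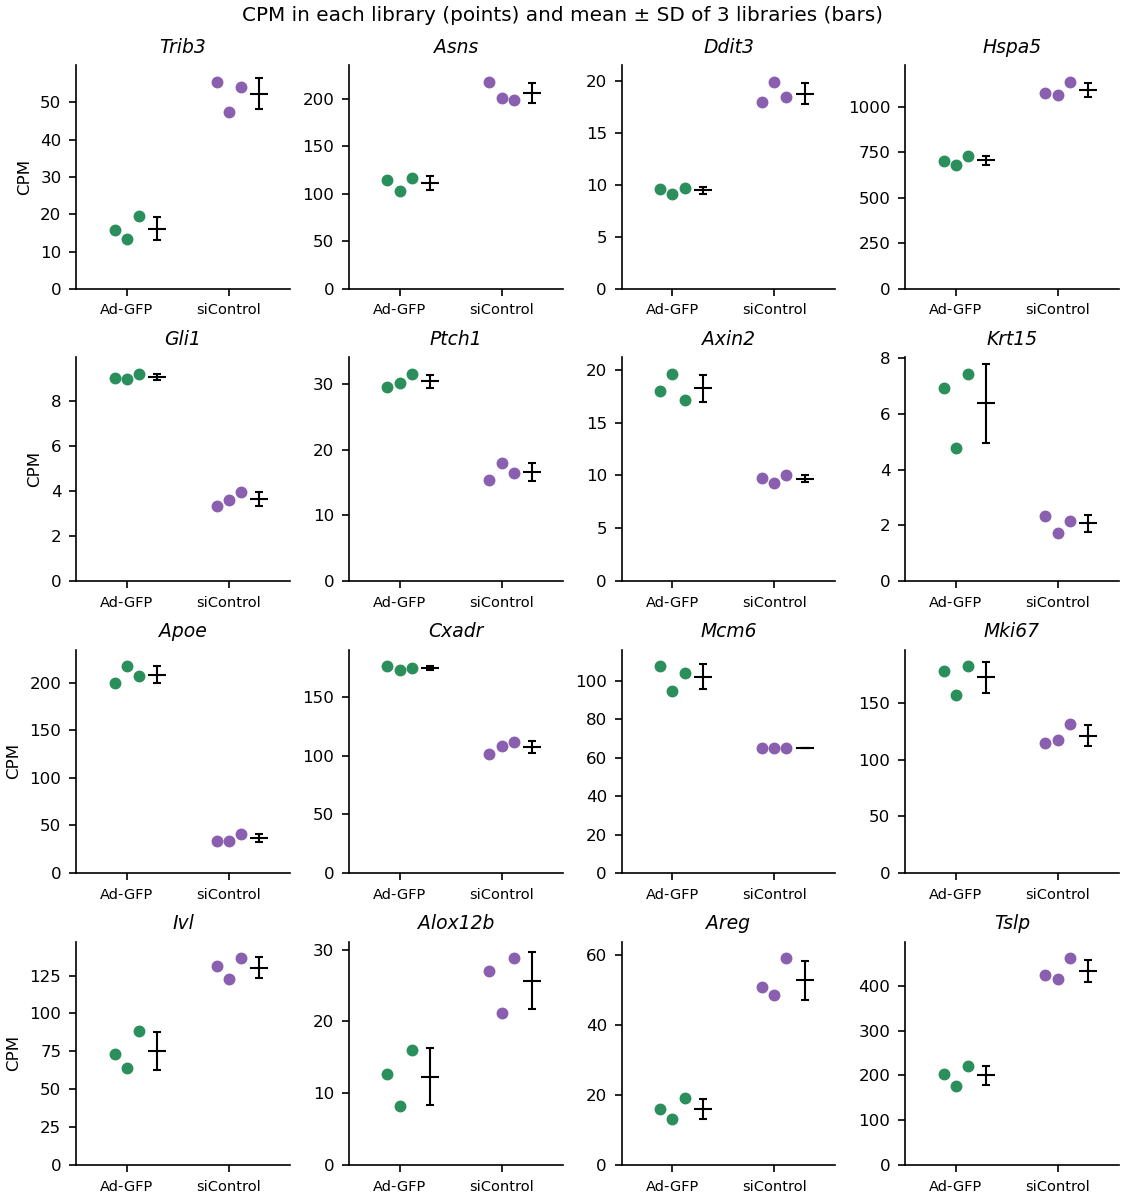
CPM of 16 genes in each of the 3 Ad-GFP (green) and 3 siControl (purple) libraries, with the mean and SD of 3 beside them; every vertical axis starts at 0. The stress genes Trib3, Asns, Ddit3 and Hspa5 were lower in all Ad-GFP libraries, Gli1, Ptch1, Axin2, Krt15, Apoe, Cxadr, Mcm6 and Mki67 were higher in all of them, and Ivl, Alox12b, Areg and Tslp were lower in all of them.

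Endoplasmic reticulum chaperones fell as well. Of 21 tested genes of the unfolded protein response, 18 fell and none rose, with a median of -0.37, and this count stayed at 18 under every alternative run. Hspa5, the chaperone BiP, was at 704, 681 and 733 CPM in the Ad-GFP libraries and 1079, 1068 and 1139 CPM in the siControl libraries, a log2 change of -0.63 ± 0.057 (SE; limma adjusted p = 4.67e-08). Creld2, a secreted chaperone, was at 24.9, 25.4 and 24.3 CPM in the Ad-GFP libraries and 43.3, 43.1 and 44.0 CPM in the siControl libraries (-0.78), and Herpud1, part of the degradation machinery of the endoplasmic reticulum, was at 33.7, 34.2 and 35.5 CPM in the Ad-GFP libraries and 54.9, 52.4 and 61.1 CPM in the siControl libraries (-0.69). No library of one group reached the other for any of these 3 genes. Sdf2l1, a chaperone partner of BiP, changed by -0.61. The ER stress response element, CCAAT and CCACG with 9 bases between them on either strand, stood in the same window of 8 of 18 members with a promoter in the table (44.4%), against 0.166% of tested genes and 0.13% of all genes. The list was made of known genes of this response, so its excess is not independent of how it was built. The stretches of the 3 members with the largest falls whose match lies outside annotated exons are shown to let the pair of boxes be seen; capitals mark the boxes. Of the 8 members that hold it, 7 fell and Canx, the chaperone calnexin, did not pass (0.02, limma adjusted p = 0.74).
Creld2 (chr15:88819495-88819563, plus strand): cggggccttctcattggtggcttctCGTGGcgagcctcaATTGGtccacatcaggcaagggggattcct
Pdia6 (chr12:17266466-17266534, plus strand): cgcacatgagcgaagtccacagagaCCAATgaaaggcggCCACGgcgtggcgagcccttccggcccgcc
Syvn1 (chr19:6046507-6046575, plus strand): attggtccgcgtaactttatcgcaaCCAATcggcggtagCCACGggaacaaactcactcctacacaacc
Pdia6, a disulfide isomerase, and Syvn1, a ubiquitin ligase of the endoplasmic reticulum, changed by -0.39 and -0.37.

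Other stress pathways were mixed. Of 17 heat shock genes, 9 rose and none fell (median 0.12). Cryab, a small heat shock protein, was at 31.1, 34.2 and 34.9 CPM in the Ad-GFP libraries and 14.05, 14.4 and 15.01 CPM in the siControl libraries, a log2 change of 1.15 ± 0.093 (SE; limma adjusted p = 1.07e-08), and the groups did not overlap. The inducible HSP70 genes Hspa1a and Hspa1b, near-identical copies, changed by 0.59 and 0.58, and the co-chaperone Hspb8 by 0.36. Of 23 antioxidant genes of NRF2, 8 fell and 2 rose (median -0.08). Hmox1, heme oxygenase, was at 56.8, 55.4 and 63.9 CPM in the Ad-GFP libraries and 96.8, 96.3 and 94.4 CPM in the siControl libraries (-0.70). Gsta4 changed by -0.73, and Gstm1, another glutathione transferase, by 0.87. Slc7a11 belongs to this list too. Of 23 p53 targets, 9 fell and 5 rose (median -0.01). Cdkn1a, the cell cycle inhibitor p21, was at 236, 249 and 239 CPM in the Ad-GFP libraries and 351, 321 and 310.0 CPM in the siControl libraries, a change of -0.44 ± 0.045 (SE; limma adjusted p = 3.31e-07), and Sesn2 and Rrm2b changed by -0.45 and -0.50. Trp53inp1 and the death receptor Fas were higher, by 0.65 and 0.62.

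Of 20 tested genes in a list of Hedgehog pathway members and targets, 10 rose (50.0%, against 18.7% of all genes) and 2 fell (1 without Ad-GFP B or without siControl A), with a median of 0.17. Gli1, the transcription factor that reads out pathway activity, was at 9.03, 8.98 and 9.22 CPM in the Ad-GFP libraries and 3.33, 3.62 and 3.96 CPM in the siControl libraries, a log2 change of 1.12 ± 0.083 (SE; limma adjusted p = 3.48e-09). Ptch1, the receptor that inhibits Smoothened, was at 29.6, 30.2 and 31.6 CPM in the Ad-GFP libraries and 15.3, 18.1 and 16.4 CPM in the siControl libraries, a change of 0.84 ± 0.065 (SE; limma adjusted p = 6.67e-09). Both targets were higher in every Ad-GFP library than in any siControl library. Gli2, the main activator of the pathway, was at 26.2, 27.9 and 24.9 CPM in the Ad-GFP libraries and 18.2, 17.1 and 19.9 CPM in the siControl libraries, a change of 0.49, also without overlap. Smo, which the SmoM2 allele encodes in active form, was at 195, 207 and 199.96 CPM in the Ad-GFP libraries and 201, 193 and 186 CPM in the siControl libraries, a log2 difference of 0.06, limma adjusted p = 0.284. The groups overlapped; Smo passed as higher only after rescaling to the same total or quantile normalization. Gli3 (0.09, limma adjusted p = 0.287) and the inhibitor Sufu (-0.00, limma adjusted p = 0.988) did not pass, and Hhip, a secreted inhibitor and target, was below the filter at 0.030 to 0.122 CPM in Ad-GFP and 0.044 to 0.262 CPM in siControl. The 2 that fell were Cdon, a co-receptor (-0.25), and the transcription factor Snai2 (-0.17). Igfbp3, a growth factor binding protein, changed by 0.95. The co-receptors Boc and Gas1 changed by 0.66 and 0.65.

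WNT and hair follicle genes, which share cells with Hedgehog signalling in the follicle, were also mostly higher. The lists share some members, such as Gas1 (Hedgehog and hair follicle) and Lgr6 (WNT and hair follicle), so their counts are not independent. Of 22 WNT pathway genes, 15 rose and 2 fell (median 0.25). Axin2, a feedback inhibitor and common readout of the pathway, was at 18.0, 19.6 and 17.1 CPM in the Ad-GFP libraries and 9.74, 9.31 and 10.0 CPM in the siControl libraries, a log2 change of 0.85 ± 0.080 (SE; limma adjusted p = 9.83e-08). Wnt3, a canonical ligand, was at 12.8, 12.8 and 13.1 CPM in the Ad-GFP libraries and 6.41, 7.02 and 6.99 CPM in the siControl libraries (0.83). Both were higher in all Ad-GFP libraries. The 2 that fell were Wnt5a, a ligand of the noncanonical branch (-0.87), and Lgr6, a receptor and stem cell marker (-0.89, with means of 1.78 ± 0.45 CPM in Ad-GFP and 4.11 ± 0.61 CPM in siControl (SD, n = 3 each)). Of 17 hair follicle stem and progenitor genes, 11 rose and 2 fell (1 without any one of the 6 libraries), and 7 rose with a filter at 5 CPM; Krt15 and the transcription factor Nfib (0.70) belong to it. Bmp2, a TGF-beta family ligand of the hair follicle, changed by 1.09, with means of 2.72 ± 0.27 CPM in Ad-GFP and 0.749 ± 0.18 CPM in siControl (SD, n = 3 each). Of 11 Notch pathway genes, 3 rose and 3 fell (27.3% each, against 18.7% higher and 21.8% lower over all genes), with Notch3 at -0.44 and the ligand Dll1 at 0.35.

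Cell cycle genes were mostly higher in Ad-GFP, by small amounts. Of 34 DNA replication genes, 31 rose and none fell, with a median log2 change of 0.37 and the largest at 0.64. Mcm6, a subunit of the replicative helicase, was at 108, 94.7 and 104 CPM in the Ad-GFP libraries and 65.0, 65.1 and 65.1 CPM in the siControl libraries, a change of 0.64 ± 0.048 (SE; limma adjusted p = 4.36e-09). Prim1 and Pola2, of the primase and polymerase alpha complex, changed by 0.61 and 0.59, and the DNA ligase Lig1 by 0.57. Of 34 mitosis genes, 31 rose and none fell (median 0.27), and 26 or more rose under every alternative run. Mki67, the proliferation marker Ki-67, was at 178, 157 and 182 CPM in the Ad-GFP libraries and 115, 117 and 131 CPM in the siControl libraries, a change of 0.51 ± 0.062 (SE; limma adjusted p = 2.4e-06). Cdk1, the mitotic kinase, was at 82.9, 74.5 and 79.3 CPM in the Ad-GFP libraries and 67.5, 67.0 and 66.8 CPM in the siControl libraries, a change of 0.23. Neither gene's groups overlapped. Nuf2, Foxm1 and Kif11, of the kinetochore, the mitotic transcription programme and the spindle, changed by 0.57, 0.45 and 0.44. G1 regulators were mostly higher too, with 11 of 19 up and 2 down. Ccne2, a cyclin of S phase entry, changed by 0.63 and Ccnd3 by 0.53. The 2 lower members were the inhibitors Cdkn1a, above, and Cdkn2b (-0.40), while the inhibitors Cdkn1b and Cdkn2c were higher (0.37 and 0.36). The inhibitor Cdkn2a did not pass (-0.13, limma adjusted p = 0.331), and neither did Ccnd2 (0.07, limma adjusted p = 0.229), which passed as higher under quantile normalization. Ccnd1 changed by 0.10 and lost its call when any library other than siControl A was left out. Of 21 ribosome biogenesis and MYC genes, 14 rose and 2 fell; Myc was at 141, 157 and 143 CPM in the Ad-GFP libraries and 106, 101 and 119.9 CPM in the siControl libraries (0.43) and Odc1, the polyamine enzyme, changed by -0.61.

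The letters of promoter elements were counted for these genes as well. The E2F core GCGGGAA stood in 9 of 28 DNA replication promoters (32.1%), against 8.32% of tested genes. The cell cycle homology letters TTTGAA stood in 10 of 28 mitosis promoters (35.7%), against 12.8% of tested genes. Both were searched on both strands in the same window of 250 bases, and a gene may hold more than one element. These lists were made of known cell cycle genes, so the shares are not independent of how they were built.

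Late differentiation genes were lower in the Ad-GFP cells. Of 34 tested cornified envelope genes, 30 fell, 2 rose and the median change on the log2 scale was -0.68, the lowest of the 49 gene lists. Ivl, involucrin, the scaffold of the envelope, was at 73.2, 64.3 and 88.7 CPM in the Ad-GFP libraries and 131, 123 and 136 CPM in the siControl libraries, a change of -0.79 ± 0.073 (SE; limma adjusted p = 6.67e-08). Lor, loricrin, was at 5.46, 4.85 and 6.26 CPM in the Ad-GFP libraries and 9.03, 13.0 and 11.2 CPM in the siControl libraries (-0.88), and Flg, filaggrin, which binds keratin filaments, at 39.9, 41.7 and 60.3 CPM in the Ad-GFP libraries and 67.7, 79.9 and 93.4 CPM in the siControl libraries (-0.76). No Ad-GFP library reached a siControl library for any of these 3. Within each group the libraries differed: Ad-GFP B had the lowest and Ad-GFP C the highest median over the list, at -0.92 and -0.39 on the log2 scale relative to the siControl mean, with Ad-GFP A at -0.67. The siControl libraries lay at -0.01, -0.07 and 0.09. Alox12b, the lipoxygenase that prepares the lipid envelope, was at 12.7, 8.22 and 16.01 CPM in the Ad-GFP libraries and 27.0, 21.2 and 28.8 CPM in the siControl libraries, a change of -1.03 ± 0.14 (SE; limma adjusted p = 8.35e-06). Cdsn, the corneodesmosome adhesion protein, changed by -0.93, Cst6, a protease inhibitor, by -1.02, and Sprr2d, of a multigene family whose copies share reads, by -1.17. The 2 that rose were Sprr2a1 (0.68), of the same family, and Pglyrp3, a peptidoglycan recognition protein (0.63). The AP-1 letters TGANTCA stood in 10 of 28 cornified envelope promoters (35.7%), against 5.88% of tested genes. This list too was made of known genes, so its share is not independent of how it was built. Among the other lists counted, the share ran from 0.0%, as for mitosis, to 26.7% (4 of 15) for the interferon response. More interferon response genes rose than fell, and a link between these letters and the direction of change was not tested.

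Spinous genes were mostly lower as well. Of 24 spinous members 17 fell and 2 rose (1 without Ad-GFP C or without siControl A), with a median of -0.35. Dsc1 and Dsg1b, the desmosomal cadherins of suprabasal cells, changed by -0.82 and -0.78, and the fatty acid hydroxylase Cyp4f39 by -0.81. Krt1, a keratin of the first suprabasal layer, was at 373, 391 and 434 CPM in the Ad-GFP libraries and 312, 367 and 335 CPM in the siControl libraries, a change of 0.24 ± 0.071 (SE; limma adjusted p = 0.0109). The Krt1 call was lost without Ad-GFP C and without siControl A. Its partner Krt10, at 41.8, 47.1 and 59.9 CPM in the Ad-GFP libraries and 37.8, 46.7 and 45.1 CPM in the siControl libraries, did not pass (0.19, limma adjusted p = 0.13), and passed as higher without Ad-GFP A. The ceramide and barrier lipid enzymes followed the cornified genes, with 19 of 23 lower and 1 higher (median -0.37). The lists share some members, such as Alox12b with the cornified list and Cyp4f39 with the spinous list. Sptlc3, of the first step of sphingolipid synthesis, was at 6.07, 5.49 and 7.40 CPM in the Ad-GFP libraries and 11.2, 12.3 and 13.4 CPM in the siControl libraries (-0.87), and Degs2, a ceramide hydroxylase, at 6.04, 5.00 and 6.58 CPM in the Ad-GFP libraries and 11.9, 11.3 and 10.6 CPM in the siControl libraries (-0.84). In both cases the groups stood apart.

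Of 19 basal markers, 5 were higher and 6 lower (26.3% and 31.6%, against 18.7% and 21.8% of all genes; 8 were higher after rescaling to the same total). Krt15, a keratin of follicle and basal stem cells, was at 6.94, 4.77 and 7.44 CPM in the Ad-GFP libraries and 2.32, 1.72 and 2.15 CPM in the siControl libraries, a log2 change of 1.25 ± 0.15 (SE; limma adjusted p = 1.69e-06). Every Ad-GFP value was above every siControl value, at low levels. Igfbp2 changed by 1.15 and Trp63, the transcription factor p63 of the basal layer, by 0.16. Of the 6 that fell, Itga6, the alpha 6 integrin, was at 927, 901 and 968 CPM in the Ad-GFP libraries and 1333, 1355 and 1401 CPM in the siControl libraries (-0.55), and Lamb3, a chain of an epidermal laminin, changed by -0.49.

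**Figure D3:**
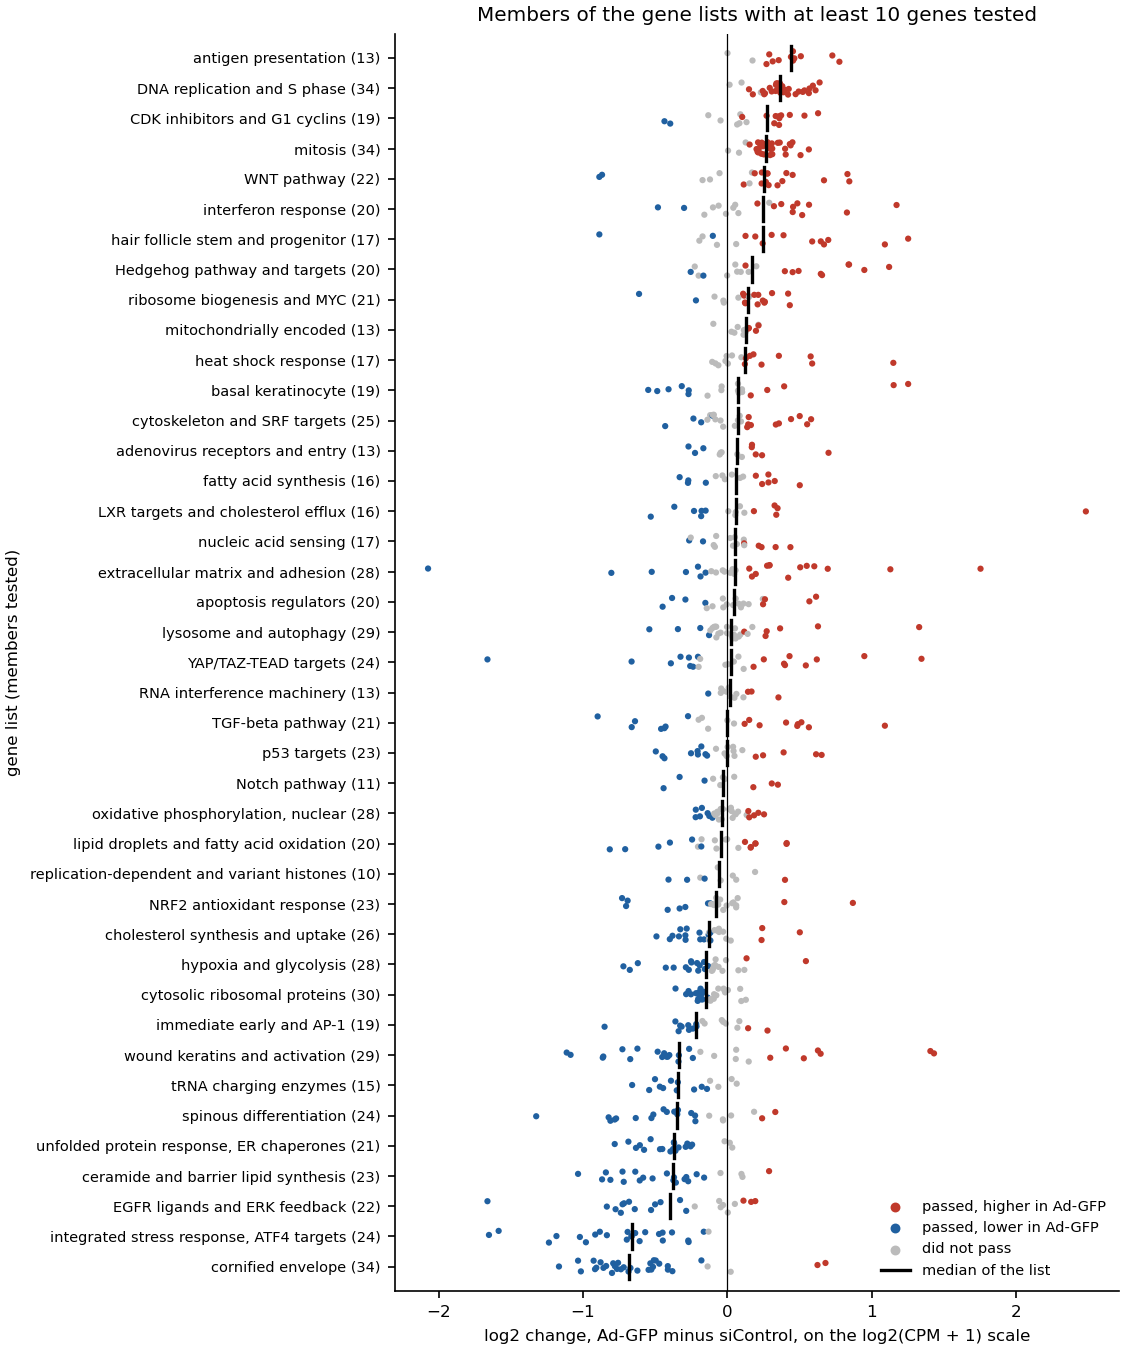
Log2 change on the log2(CPM + 1) scale, Ad-GFP minus siControl, of each tested member of the gene lists with 10 or more tested genes (points, red and blue where the gene passed) with the list's median (black bar). Cornified envelope and ATF4 target genes lie farthest left (medians -0.68 and -0.66), antigen presentation and DNA replication genes farthest right (0.44 and 0.37).

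Genes of the activated, wound-like keratinocyte and of EGF receptor signalling were mostly lower. Of 29 wound and activation genes, 17 fell and 7 rose (median -0.34). Tslp, an epithelial cytokine, was at 203, 177 and 220.4 CPM in the Ad-GFP libraries and 423, 414 and 461 CPM in the siControl libraries, a log2 change of -1.11 ± 0.067 (SE; limma adjusted p = 2.47e-10). Il33, an alarmin, was at 28.7, 21.9 and 35.7 CPM in the Ad-GFP libraries and 63.7, 52.1 and 68.6 CPM in the siControl libraries (-1.09), and Il1a changed by -0.34. Tslp and Il33 did not overlap between groups. The wound keratins Krt6a and Krt16 changed by -0.40 and -0.41, while Krt17 did not pass (0.06, limma adjusted p = 0.462). Of the chemokines in the list, Ccl2 was at 6.16, 6.29 and 6.42 CPM in the Ad-GFP libraries and 1.84, 1.94 and 1.48 CPM in the siControl libraries (1.41) and Ccl20, above, was higher too, while Cxcl5 fell (-0.73) and Cxcl1 (-0.19, limma adjusted p = 0.0518) and Cxcl2 (0.15, limma adjusted p = 0.348) did not pass. Among 22 EGF receptor ligands and feedback genes, 13 fell and 3 rose (1 without Ad-GFP A, Ad-GFP C or siControl A), with a median of -0.40. Besides Areg, the ligand Btc changed by -0.84. Etv5, a transcription factor induced by ERK signalling, was at 28.6, 27.1 and 25.6 CPM in the Ad-GFP libraries and 49.9, 46.1 and 45.1 CPM in the siControl libraries (-0.77), and Dusp5, a phosphatase of ERK, changed by -0.74. The feedback genes Spry1, Errfi1, Dusp4, Spred1 and Spred2 did not pass, and the 3 that rose were Egfr (0.11), Erbb3 (0.17) and Lrig1 (0.19). Of 19 immediate early and AP-1 genes, 10 fell and 2 rose (1 without siControl B), Egr1 (0.14) and Cited2 (0.28); Fos was at 32.3, 31.4 and 37.8 CPM in the Ad-GFP libraries and 62.3, 53.8 and 70.0 CPM in the siControl libraries, a change of -0.85 ± 0.074 (SE; limma adjusted p = 3.31e-08), and the groups did not overlap.

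Lipid genes did not move as one. Of 26 cholesterol synthesis and uptake genes, 14 fell and 3 rose (median -0.13; 10 fell at the fewest among the alternatives). Hsd17b7 and Mvd, enzymes of cholesterol synthesis, changed by -0.49 and -0.38. Of the regulators, Srebf2 (-0.06, limma adjusted p = 0.256), Srebf1 (-0.02, limma adjusted p = 0.822) and Insig1 (-0.07, limma adjusted p = 0.147) did not pass. Of 16 fatty acid synthesis genes, 6 rose and 4 fell: Elovl5 and Fads2, which lengthen and desaturate polyunsaturated fatty acids, changed by 0.50 and 0.33, Scd1 by 0.20 and Me1 by -0.33, while Fasn (-0.03, limma adjusted p = 0.536) and Scd2 (-0.08, limma adjusted p = 0.15) did not pass. Of 16 LXR and cholesterol efflux genes, 5 rose and 6 fell. Apoe far exceeded the rest of that list, whose next rise was Plpp3 at 0.35 (lost without Ad-GFP B). Abca1, the cholesterol efflux pump, was at 48.3, 49.4 and 44.5 CPM in the Ad-GFP libraries and 41.3, 41.4 and 42.0 CPM in the siControl libraries (0.18), and Soat1, which esterifies cholesterol, changed by -0.53. Of 20 lipid droplet and fatty acid oxidation genes, 7 rose (4 without Ad-GFP C or without siControl B) and 6 fell; Dgat2, the triglyceride enzyme, changed by -0.81 and Fabp5, the epidermal fatty acid binding protein, by -0.71, with means of 725 ± 100.4 CPM in Ad-GFP and 1177 ± 21 CPM in siControl (SD, n = 3 each). Of 28 hypoxia and glycolysis genes 15 fell and 2 rose (1 without Ad-GFP C or without siControl B), with Vegfa at -0.72 and Car9 at -0.68.

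Interferon-induced genes were at low levels in both groups. Isg15 was at 0.682 to 0.845 CPM in Ad-GFP and at 0.424 to 0.927 CPM in siControl, and Ifit1 at 0.152 to 0.453 CPM in Ad-GFP and 0.141 to 0.353 CPM in siControl. Both of these interferon-induced genes overlapped between groups and fell below the filter, as did Cxcl10 and Il1b. Of 34 interferon response genes in the table, 15 stayed under 1 CPM in all 6 libraries and 20 were tested; 10 of those rose (6 with a filter at 5 CPM) and 2 fell (1 without Ad-GFP A, Ad-GFP B, siControl A or siControl C). Gbp2, a guanylate-binding protein, was at 4.86, 4.13 and 4.39 CPM in the Ad-GFP libraries and 1.499, 1.41 and 1.34 CPM in the siControl libraries (1.17), and Ddx58, the RNA sensor RIG-I, at 32.3, 29.0 and 32.8 CPM in the Ad-GFP libraries and 21.2, 23.3 and 20.2 CPM in the siControl libraries (0.52). Both were higher in all Ad-GFP libraries. Mx1 (-0.48) and Mx2 (-0.30, where the groups overlapped) were the 2 that fell, and 8 did not pass. MHC class I antigen presentation was more uniform, with 11 of 13 genes higher, none lower and a median of 0.44. B2m, the shared light chain, was at 146, 149 and 139.8 CPM in the Ad-GFP libraries and 101, 101 and 102 CPM in the siControl libraries, a log2 change of 0.51 ± 0.045 (SE; limma adjusted p = 3.52e-08). The immunoproteasome subunit Psmb8 was at 15.5, 13.7 and 15.3 CPM in the Ad-GFP libraries and 9.52, 7.86 and 8.30 CPM in the siControl libraries (0.73), and the peptide transporter Tap2 and the class I gene H2-Q4 changed by 0.46 and 0.78. None of these 4 genes overlapped between groups. H2-Q4 has close relatives whose reads may be shared. Of 17 nucleic acid sensing genes, 5 rose and 2 fell (29.4% and 11.8%, against 18.7% and 21.8% of all genes). Without Ad-GFP C, siControl A or siControl C, 3 rose. Without any one of Ad-GFP B, Ad-GFP C, siControl A or siControl B, 1 fell. Tlr3, the double-stranded RNA receptor, changed by 0.44.

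Among genes of the delivery routes themselves, Cxadr had the largest change. Cxadr, the coxsackievirus and adenovirus receptor to which the type 5 virus binds, was at 177, 174 and 175 CPM in the Ad-GFP libraries and 102, 109 and 112 CPM in the siControl libraries, a log2 change of 0.70 ± 0.041 (SE; limma adjusted p = 1.94e-10). The groups were apart, with the virus-treated cells higher. Of 13 adenovirus receptor and entry genes 5 rose and 3 fell (38.5% and 23.1%), the next largest being the alpha 3 integrin Itga3 (-0.27) and Dsg2, a desmosomal cadherin that some adenoviruses bind (0.24). Of 13 RNA interference genes 3 rose and 1 fell (23.1% and 7.69%, against 18.7% and 21.8% of all genes), with Ago4, an Argonaute, at 0.35. None fell without Ad-GFP A, Ad-GFP B, siControl A or siControl B.

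Of YAP, TAZ and the TEAD factors, the proteins the series targets, 1 of 8 tested genes, Tead2, differed by the test (3 without siControl A and under both other scalings). Yap1 was at 211, 213 and 208 CPM in the Ad-GFP libraries and 206, 196 and 187 CPM in the siControl libraries (0.10, limma adjusted p = 0.0906), and Wwtr1, which encodes TAZ, was at a log2 difference of 0.08, limma adjusted p = 0.265. Neither passed, though Yap1 did as higher under both other scalings and without siControl A. A call that misses the threshold does not show equal levels. Tead2 changed by 0.70, with means of 5.66 ± 0.58 CPM in Ad-GFP and 3.08 ± 0.17 CPM in siControl (SD, n = 3 each), while Tead1 (0.01, limma adjusted p = 0.862), Tead3 (0.05, limma adjusted p = 0.493) and Tead4 (-0.15, limma adjusted p = 0.0619) did not pass; Tead4 passed as lower without siControl B. Of 24 YAP and TAZ target genes 9 rose and 8 fell (median 0.03). Ccn2, a matricellular target, was at 64.5, 61.9 and 69.6 CPM in the Ad-GFP libraries and 45.2, 47.8 and 51.5 CPM in the siControl libraries (0.43), and Ccn1, its close relative, did not pass (-0.01, limma adjusted p = 0.875). The target Nuak2 changed by -0.66, and Areg, Tnfrsf11b and Igfbp3 belong to this list too. Fn1, fibronectin, was at 550.3, 545 and 580.2 CPM in the Ad-GFP libraries and 254, 260.3 and 249 CPM in the siControl libraries, a log2 change of 1.13 ± 0.066 (SE; limma adjusted p = 1.58e-10), in a matrix list with 13 of 28 genes higher and 7 lower (4 lower without Ad-GFP A). Of 25 cytoskeleton and SRF target genes, 10 rose (6 without Ad-GFP A) and 4 fell. The muscle actins Acta2 and Acta1 changed by 0.58 and 0.50 and the actin-binding gene Tagln by 0.55, while the cytoplasmic actin Actb changed by -0.18 and Actg1 did not pass (-0.08, limma adjusted p = 0.241). TGF-beta pathway genes were split, 9 of 21 higher and 7 lower; the induced matrix protein Tgfbi changed by -0.66 and the feedback inhibitor Smad7 by -0.64. Of 30 cytosolic ribosomal protein genes, 16 fell and none rose (10 fell without siControl A, 9 under quantile normalization).

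Ad-TEADi and siYAP1+TAZ differ by the same change of delivery, and their values enter no fold change of the control comparison, although the filter and the spread were taken from all 12 libraries. Their cargo differs as well, a TEAD inhibitor against a knockdown of YAP1 and TAZ, so delivery and cargo cannot be told apart there. In that comparison 4002 genes (30.9%) were higher and 3864 (29.8%) lower in Ad-TEADi. The difference between the comparisons, tested as an interaction, was called for 6673 genes (51.5%). Of the 2421 genes higher in Ad-GFP, 1120 were higher in Ad-TEADi too (46.3% of the Ad-GFP list and 28% of the Ad-TEADi list) and 555 were lower (22.9%). Of the 2823 lower in Ad-GFP, 1406 were lower in Ad-TEADi (49.8% and 36.4%) and 521 higher (18.5%). The shared counts moved to 1910 higher and 910 lower in both after rescaling to the same total.

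Gene groups differed in whether the second comparison gave a like direction. Cell cycle genes did: all 34 DNA replication and all 34 mitosis genes were higher in Ad-TEADi than in siYAP1+TAZ, with medians of 0.86 and 0.92. Cornified envelope and spinous genes again had medians below 0, at -1.33 and -1.05, and 22 of 23 ceramide and barrier lipid genes were lower. Relative to the siControl mean, siYAP1+TAZ library medians were -0.43 to -0.34 for DNA replication and -0.62 to -0.45 for mitosis. For cornified envelope genes they were 1.87 to 1.97 in siYAP1+TAZ and 0.51 to 0.65 in Ad-TEADi. Ad-TEADi thus lay below siYAP1+TAZ but above siControl for that list. The part of delivery in these directions was not tested. ATF4 targets did not go in a like direction: 13 of 24 were higher and 5 lower in Ad-TEADi, with a median of 0.22. The unfolded protein response had 7 higher and 8 lower, with a median of 0.00. Trib3 was at 81.4, 63.4 and 63.7 CPM in the Ad-TEADi libraries and 87.0, 80.9 and 80.0 CPM in the siYAP1+TAZ libraries, a log2 change of -0.26 ± 0.10 (SE; limma adjusted p = 0.0372), and the difference between the comparisons was -1.40 ± 0.14 (SE; limma adjusted p = 2.18e-07). The Ad-GFP libraries, at 13.3 to 19.4 CPM, held the lowest Trib3 values of the 4 groups. Hedgehog genes were mixed, with 9 higher and 8 lower (median 0.13). Gli1 was at 10.5, 8.44 and 9.06 CPM in the Ad-TEADi libraries and 8.91, 8.08 and 8.27 CPM in the siYAP1+TAZ libraries and did not pass (0.13 ± 0.083 (SE; limma adjusted p = 0.189)), and the siControl libraries, at 3.33 to 3.96 CPM, held the lowest Gli1 values of the 4 groups. In Ad-TEADi, Ptch1 was higher by 0.44. Apoe went the other way: it was at 182, 139 and 136 CPM in the Ad-TEADi libraries and 482, 520.2 and 488 CPM in the siYAP1+TAZ libraries, a change of -1.71 ± 0.085 (SE; limma adjusted p = 2.48e-12), and the difference between the comparisons was 4.20 ± 0.12 (SE; limma adjusted p = 8.39e-15). WNT genes had 4 higher and 8 lower (median -0.08), yet Axin2 was higher by 0.82. Hair follicle genes had 4 higher and 9 lower (median -0.21), and interferon response genes 2 higher and 6 lower (median -0.13). Antigen presentation genes had 6 higher and 3 lower (median 0.10). Of 15 tRNA charging enzymes, 11 were higher and 1 lower in Ad-TEADi (median 0.26).

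**Figure D4:**
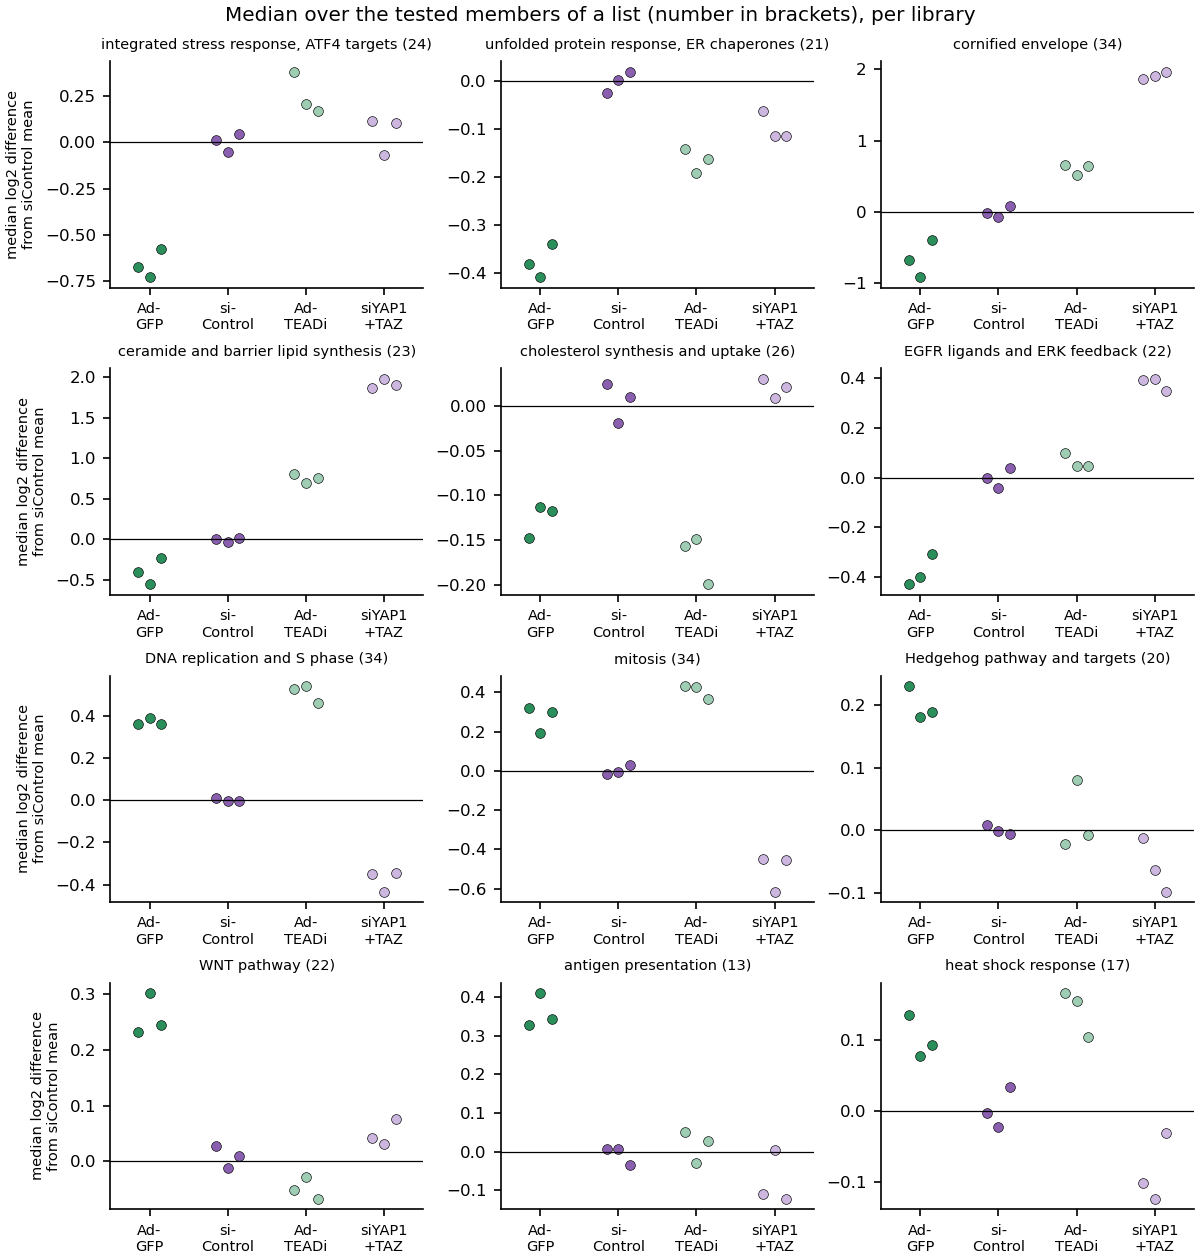
Median over the tested members of 12 gene lists, as log2 difference from the mean of the siControl libraries (vertical), in each of the 12 libraries, by group. ATF4 targets and chaperones were lowest in the Ad-GFP libraries, DNA replication and mitosis genes were above the matching siRNA group in both virus groups, and cornified envelope and ceramide genes were below it in both.

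**Figure D5:**
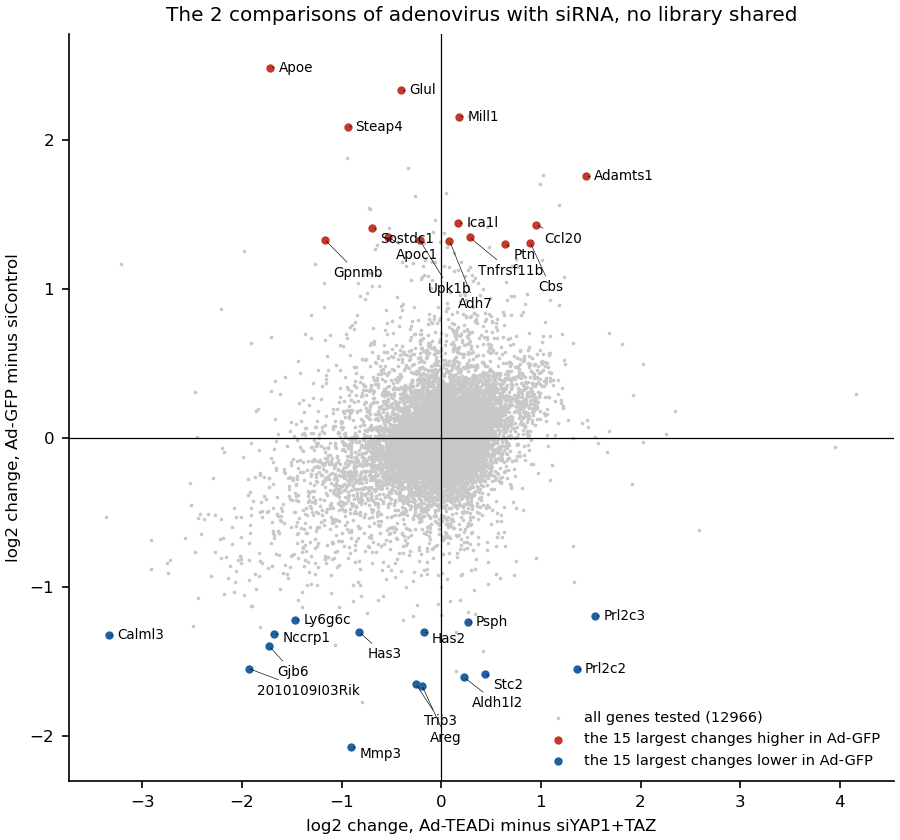
Log2 change of every tested gene in Ad-GFP minus siControl (vertical) and Ad-TEADi minus siYAP1+TAZ (horizontal), on the log2(CPM + 1) scale. The 15 largest changes in each direction, taken from genes averaging 10 CPM or more, are named: Adamts1 was higher in both comparisons, Mmp3 and Gjb6 were lower in both, and Apoe, Steap4 and Gpnmb were higher in one and lower in the other.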

How the data were processed

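CPM values of 17090 genes in 12 libraries were deposited by the authors as 1 table, whose name marks them as TMM-scaled. RNA was isolated with TRIZOL and prepared with the TruSeq mRNA Prep Kit, per the labels' protocols. Per the submitters' processing notes, cutadapt 1.18, STAR 2.7.0f, Partek 8.0.19.0819 and the mm10 build were used. For the counting and strand settings, nothing is given in the sources used here; near-identical or overlapping genes are therefore uncertain. A table of the authors' own comparisons was not used here.

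Taking the lowest value of a library as 1 read, 1 CPM stood for 22.7 to 33.1 reads in the 6 libraries. Over all 12 libraries, 83.5% to 85.4% of values up to 20 reads lay within 0.1 of a whole read, below the 95% required to recover reads, and no count test was run.

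The 12966 genes that reached 1 CPM in 3 or more of the 12 libraries (4124 were set aside) entered limma 3.58.1, run under R 4.3.3, as log2(CPM + 1), with a mean-dependent spread, a mean per group and 1 spread estimated from all 12 libraries per fit, and were called at a Benjamini-Hochberg adjusted p below 0.05 (two-sided). The script was tested on simulated data. Lists are described by counts and medians, with no set test.

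The members, the 49 gene lists and the naming rule were chosen with earlier results of these data known. The text names the 15 largest called, non-overlapping changes in each direction of genes averaging 10 CPM or more, up to 4 called members of each list with the largest changes, and a set of pathway and keratinocyte genes. Asns, Chac1, Pdia6, Syvn1, Boc, Gas1, Cdkn2b, Cdkn1b, Cdkn2c, Mx1, Mx2, Sprr2a1, Pglyrp3, Fbln1, Canx, Cxcl1, Cxcl2, Cxcl5, Actb, Actg1, Cdon, Snai2, Spry1, Errfi1, Dusp4, Spred1, Spred2, Egfr, Erbb3, Lrig1, Egr1, Cited2 and the melanocyte markers other than Gpnmb fall outside the rule and were named after their values were seen. Promoter sequences are those of RefSeq, GRCm38.p6.

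The alternatives were other pseudocounts, filters, scalings, spread models, a fit of the 6 libraries alone, the library letter as a block, and each library left out. A few genes that the naming rule includes are not reported here.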

Additional observations from a re-analysis of the deposited data

Results flagged for a closer look

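The effect of adenovirus against siRNA was compared between the control pair (Ad-GFP minus siControl) and the treated pair (Ad-TEADi minus siYAP1+TAZ) by an interaction term in limma, as the first minus the second. Of the 30 genes with the largest changes in the control pair, 28 had a difference between the pairs at an adjusted p below 0.05, where 51.5% of all tested genes had one; the 30 were chosen by the first term of that difference, so the 2 shares cannot be compared. The treated pair also differs in cargo, and the part of the delivery in these differences was not tested.

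Among the genes higher in Ad-GFP, the difference of log2 changes was 4.20 for Apoe, 3.03 for Steap4, 2.74 for Glul, 2.50 for Gpnmb, 2.10 for Sostdc1 and 1.98 for Mill1. It was 1.89 for Apoc1, 1.54 for Upk1b, 1.27 for Ica1l, 1.24 for Adh7, 1.06 for Tnfrsf11b, 0.66 for Ptn, 0.48 for Ccl20, 0.42 for Cbs and 0.30 for Adamts1.

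Among those lower in Ad-GFP, the difference was negative for 10 genes: -2.92 for Prl2c2, -2.74 for Prl2c3, -2.02 for Stc2, -1.84 for Aldh1l2, -1.50 for Psph, -1.47 for Areg, -1.40 for Trib3, -1.17 for Mmp3, -1.12 for Has2 and -0.48 for Has3. It was positive for 3 genes whose fall was larger in the treated pair: 2.01 for Calml3, 0.38 for 2010109I03Rik and 0.36 for Nccrp1.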

How the results depend on the processing

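No log2 change of a called, named gene changed sign under any alternative run. The balance of directions did turn for all genes (3184 higher and 2214 lower after rescaling the columns to the same total) and for nuclear oxidative phosphorylation genes (9 higher and 2 lower). The counts of at least 2-fold changes were 160 higher and 128 lower with a pseudocount of 0.1 CPM, 24 higher and 22 lower with 5 CPM, and 40 to 83 lower with 1 library left out (83 without Ad-GFP replicate C). With columns rescaled to the same total, 6045 genes were higher in Ad-TEADi than in siYAP1+TAZ, 1910 were higher in both comparisons and 910 lower in both. Interferon genes had 6 higher and hair follicle genes 7 higher with a filter at 5 CPM; cytoskeleton and SRF target genes had 6 (without Ad-GFP replicate A) to 11 higher with 1 library left out; ribosomal protein genes had 9 lower under quantile normalization and 10 (without siControl replicate A) to 20 lower with 1 library left out. Leaving out 1 of the 6 libraries gave 2014 to 2218 higher and 2300 to 2672 lower. The cause of these moves was not tested. The values gave no clear sign that the library letters pair the samples. Same-letter deviations in Ad-GFP and siControl correlated at -0.034, 0.0762 and 0.131 across genes, and 1 of the 3 Ad-GFP libraries correlated best with its own letter. The labels do not say what a letter marks, and 3 libraries per group are too few to decide on pairing. With the letters as a replicate block, 2493 genes were higher and 2939 lower, and 81 and 51 by at least 2-fold. Over the named genes and all settings, 81 calls were lost and 8 gained; over all genes, single settings kept between 4268 and 5199 of the 5244 calls. Genes near 1 CPM rest on an estimated 22.7 to 33.1 reads a library, which limits what their values can show.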

Other observations

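Log2 changes here are Ad-GFP minus siControl, and each named gene passed the limma test. Of 29 lysosome and autophagy genes, 6 rose and 4 fell (20.7% and 13.8%, against 18.7% and 21.8% of all genes): the autophagy gene Gabarapl1 changed by 0.63, the lysosomal membrane protein Lamp2 by 0.37 and the protease Ctsl by -0.54. Of 20 apoptosis regulators, 4 rose and 4 fell (20% each, near those of all genes), with the death agonist Bid at 0.57, the BH3 gene Bcl2l11 at -0.45 and the caspase 8 inhibitor Cflar at -0.38. Mgst1, a glutathione transferase counted among sebaceous markers, was at 14.2, 13.7 and 15.6 CPM in the Ad-GFP libraries and 4.72, 5.38 and 4.88 CPM in the siControl libraries (1.37). Every Ad-GFP value for Mgst1 was above every siControl value, while the adipocyte and sebocyte gene Fabp4 changed by -0.76, with means of 0.811 ± 0.14 CPM in Ad-GFP and 2.06 ± 0.13 CPM in siControl (SD, n = 3 each). Tubb3, a neural tubulin, was at 59.0, 70.6 and 59.1 CPM in the Ad-GFP libraries and 107, 101 and 103 CPM in the siControl libraries, a log2 change of -0.72 ± 0.067 (SE; limma adjusted p = 8.35e-08). The 13 mitochondrially encoded genes summed to 29417 to 30169 CPM in Ad-GFP and 25653 to 28744 CPM in siControl; 4 rose, but 1 rose without Ad-GFP A or without siControl A, 2 without Ad-GFP C, 7 with the replicate block and 8 after rescaling to the same total. Nuclear genes of oxidative phosphorylation had 5 of 28 higher and 7 lower (17.9% and 25%, near the shares of all genes), and 9 higher and 2 lower after rescaling. Without single libraries 2 to 8 of the 28 fell, with 4 or fewer except without siControl C.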
